A study of Mus musculus with 6 samples.

Results

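The genes examined were 9 markers of cortical layer identity, taken from the array table by gene symbol. They were Tbr1, Fezf2, Bcl11b and Foxp2 for the deep layers, Cux1, Cux2 and Rorb for the upper layers, and Reln and Mef2c, which belong to neither side of that division. They made up 9 of the 18138 symbols and 21 of the 25697 probes in the table. Of these 21 probes, 18 were bright enough to be tested, among 14215 tested probes in all, and every gene kept at least 1 probe.

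RNA of whole brain from male FVB mice at postnatal day 6 was hybridized to Illumina MouseRef-8 v2.0 bead arrays, with 3 arrays per genotype, to ask how an activated human SRY transgene alters gene expression in the brain. Both groups carried Signalox-hSRY, a single-copy transgene at the H11 locus of chromosome 11. In hSRY-OFF mice the transgene was unrecombined, so the ubiquitous CAG promoter drove the red fluorescent gene DsRed2 and the FLAG-tagged human SRY-IRES-EGFP unit behind it stayed silent. In hSRY-ON mice, Cre carried over in the oocyte of a Ddx4-Cre mother had removed the loxP-flanked DsRed2 unit in the early embryo, which placed SRY and EGFP directly behind the CAG promoter, and the mice used for the arrays did not themselves carry Ddx4-Cre. The model is therefore 1 integration behind a ubiquitous promoter, not restricted to cortical neurons. The study describes biological triplicates, while the array labels do not state that each array came from a separate animal, and p-values cover the spread between these arrays. The median intensity was 200 to 220 per array and 13816 to 14377 probes per array were detected. One array, hSRY-ON 3, lay apart from the others on the second principal component (score -22.2, against 0.045 to 8.92 for the other 5).

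The mammalian neocortex is built of layers of excitatory neurons that are born in an inside-out order, deep layers first. Transcription factors fix these fates: Fezf2 and Bcl11b (also called Ctip2) specify deep neurons that project below the cortex, Tbr1 specifies layer 6 neurons that project to the thalamus, and Cux1, Cux2 and Rorb mark neurons of the upper layers. Reelin, secreted by Cajal-Retzius cells at the cortical surface, guides the migrating neurons into their layers through the receptors Vldlr and Lrp8 and the adaptor Dab1. In whole brain, none of these genes reads the cortex alone. Bcl11b and Foxp2 are strongly expressed in striatal neurons, Foxp2 also in Purkinje cells and thalamus, Rorb in thalamus, and Reln in cerebellar granule cells. Fewer cells of a type and less RNA per cell cannot be told apart in such bulk samples.

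SRY binds DNA through a high mobility group box that prefers the core AACAAT and, with other SOX proteins, AACAAAG. The 250 bases before the annotated starts were therefore searched on both strands for these strings, which do not overlap each other in the matches found. RefSeq promoter entries (GRCm38.p6) were present for 8 of the 9 genes, with 12 entries in all. Of these entries, 3 held a match, 1 each for Tbr1, Cux2 and Mef2c. Over all 32851 RefSeq promoter entries, AACAAT was present in 9.42%, AACAAAG in 5.03% and either in 13.8%. The 3 matches are shown with their flanks, each read in the direction of its gene with the match in capitals, where CTTTGTT is AACAAAG on the other strand. The bases before the start in the Bcl11b promoter entry are shown beside them. This gene was taken because its probe had the smallest SE of the 5 probes of these genes with an unadjusted p under 0.05. The Bcl11b bases held neither string, which says only that these letters are absent from this window.
Tbr1: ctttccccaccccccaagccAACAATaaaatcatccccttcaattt
Cux2: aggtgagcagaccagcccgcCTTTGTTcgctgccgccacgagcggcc
Mef2c: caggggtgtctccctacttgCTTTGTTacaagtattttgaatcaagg
Bcl11b: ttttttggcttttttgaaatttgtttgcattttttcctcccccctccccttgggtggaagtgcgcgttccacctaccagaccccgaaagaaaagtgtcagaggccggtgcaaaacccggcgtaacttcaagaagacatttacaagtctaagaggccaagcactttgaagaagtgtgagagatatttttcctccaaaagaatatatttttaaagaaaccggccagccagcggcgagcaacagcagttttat
The Tbr1 stretch lay at chr2:61804337-61804382 on the forward strand, with the match 96 to 91 bases before the start in its promoter entry. The Cux2 stretch lay at chr5:122049971-122050017 on the reverse strand, with the match 146 to 140 bases before 1 of the starts annotated for this gene. The Mef2c stretch lay at chr13:83573433-83573479 on the forward strand, with the match 154 to 148 bases before 1 of the starts annotated for this gene. The Bcl11b bases lay at chr12:108003415-108003664 on the reverse strand. Each of these stretches lay inside the outer bounds annotated for its gene, such as 107910403 to 108004145 for Bcl11b and 61802863 to 61814114 for Tbr1. The starts used are those of the promoter entries, not the outermost gene ends. A match is a string of letters, not a site at which SRY was shown to bind.

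No probe of the 9 genes passed an adjusted p of 0.05 between hSRY-ON and hSRY-OFF in the limma fit over all tested probes, where 2.17% of probes were called (308 of 14215). At an unadjusted p under 0.05 there were 5 of the 18 probes, 4 of them in deep layer genes, beside 20.9% of all probes. The arrays of hSRY-ON and hSRY-OFF did not overlap for 5 of the 18, beside 27.7% of all probes. Taken over the 9 genes, these shares are close to those of the array as a whole. The values below are normalized log2 signals, differences are hSRY-ON minus hSRY-OFF on the log2 scale, and each adjusted p is from that limma fit with 3 arrays per group. Levels of different probes are not comparable with one another. Where an adjusted p without background correction is given below, 9.26% of all probes were called in that fit.

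Among the deep layer genes, the brightest probe of each lay above its hSRY-OFF mean in hSRY-ON for 4 of 4, beside 51.1% of all probes, with a median difference of 0.27 beside 0.0048 over all tested probes (quartiles -0.14 and 0.14). None of these differences passed the test. Tbr1, at 0.03, turned below 0 without hSRY-OFF 2, hSRY-ON 1 or hSRY-ON 2. The genes were picked with results of these arrays known, so the count only describes them. Bcl11b, which drives the corticospinal fate and is also required in striatal projection neurons, read 11.39, 11.44 and 11.47 in hSRY-OFF and 11.88, 11.70 and 11.90 in hSRY-ON (arrays 1, 2 and 3 in that order, here and below). All hSRY-ON arrays lay above all hSRY-OFF arrays, and the separation was larger than the range within either genotype. The difference was 0.40 (SE 0.087, 95% interval 0.19 to 0.60, adjusted p 0.0672), or 1.32-fold. Its adjusted p was 0.0044 without background correction and 0.0976 with median scaling. When any single array was left out, the difference ranged from 0.36 to 0.46 and the adjusted p from 0.0802 to 0.175.

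Foxp2, a forkhead transcription factor of layer 6 neurons, was read by 3 tested probes, and the other 1 was not detected on any of the 6 arrays. The probe ILMN_2659660 had the lowest p of all probes of the 9 genes. It read 7.14, 6.79 and 6.97 in hSRY-OFF and 7.55, 7.78 and 7.41 in hSRY-ON, with no overlap, and the difference was 0.62 (SE 0.13, 95% interval 0.31 to 0.93, adjusted p 0.0616). The probe ILMN_2659663 read 7.27, 7.21 and 6.72 in hSRY-OFF and 7.36, 7.48 and 7.74 in hSRY-ON. These groups did not overlap either, although their nearest arrays were almost level, and the difference was 0.46 (SE 0.17, adjusted p 0.190), or 0.29 without hSRY-OFF 3. The remaining probe, ILMN_3140000, is the brightest and read 7.84, 7.73 and 8.05 in hSRY-OFF and 8.39, 7.98 and 8.34 in hSRY-ON. Here hSRY-ON 2 fell below hSRY-OFF 3, so the groups overlapped, with a difference of 0.36 (SE 0.14, adjusted p 0.196). The 3 Foxp2 probes thus lay on the same side. Because they are dim, the size depended on the background correction, and without it the first probe differed by 0.31 (adjusted p 0.0158). With single arrays left out, the adjusted p of the first probe ranged from 0.0555 to 0.164.

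Fezf2, the selector gene of subcerebral projection neurons, read 10.10, 9.97 and 9.98 in hSRY-OFF and 10.14, 10.24 and 10.21 in hSRY-ON. The groups did not overlap, but the gap between hSRY-OFF 1 and hSRY-ON 1 was smaller than the spread of either group. The difference was 0.18 (SE 0.080, 95% interval -0.0078 to 0.37, adjusted p 0.253). Tbr1, the T-box factor of layer 6, read 10.56, 10.47 and 10.66 in hSRY-OFF and 10.71, 10.68 and 10.38 in hSRY-ON. Its hSRY-ON arrays included both the highest and the lowest of the 6, and the difference was 0.03 (SE 0.11, 95% interval -0.24 to 0.30, adjusted p 0.922), or 0.13 (adjusted p 0.439) without hSRY-ON 3. Over the deep layer genes, 4 of 6 tested probes had hSRY-ON arrays wholly above hSRY-OFF arrays, beside 13.5% of all probes. This count, too, only describes genes picked with results of these arrays known.

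**Figure D1:**
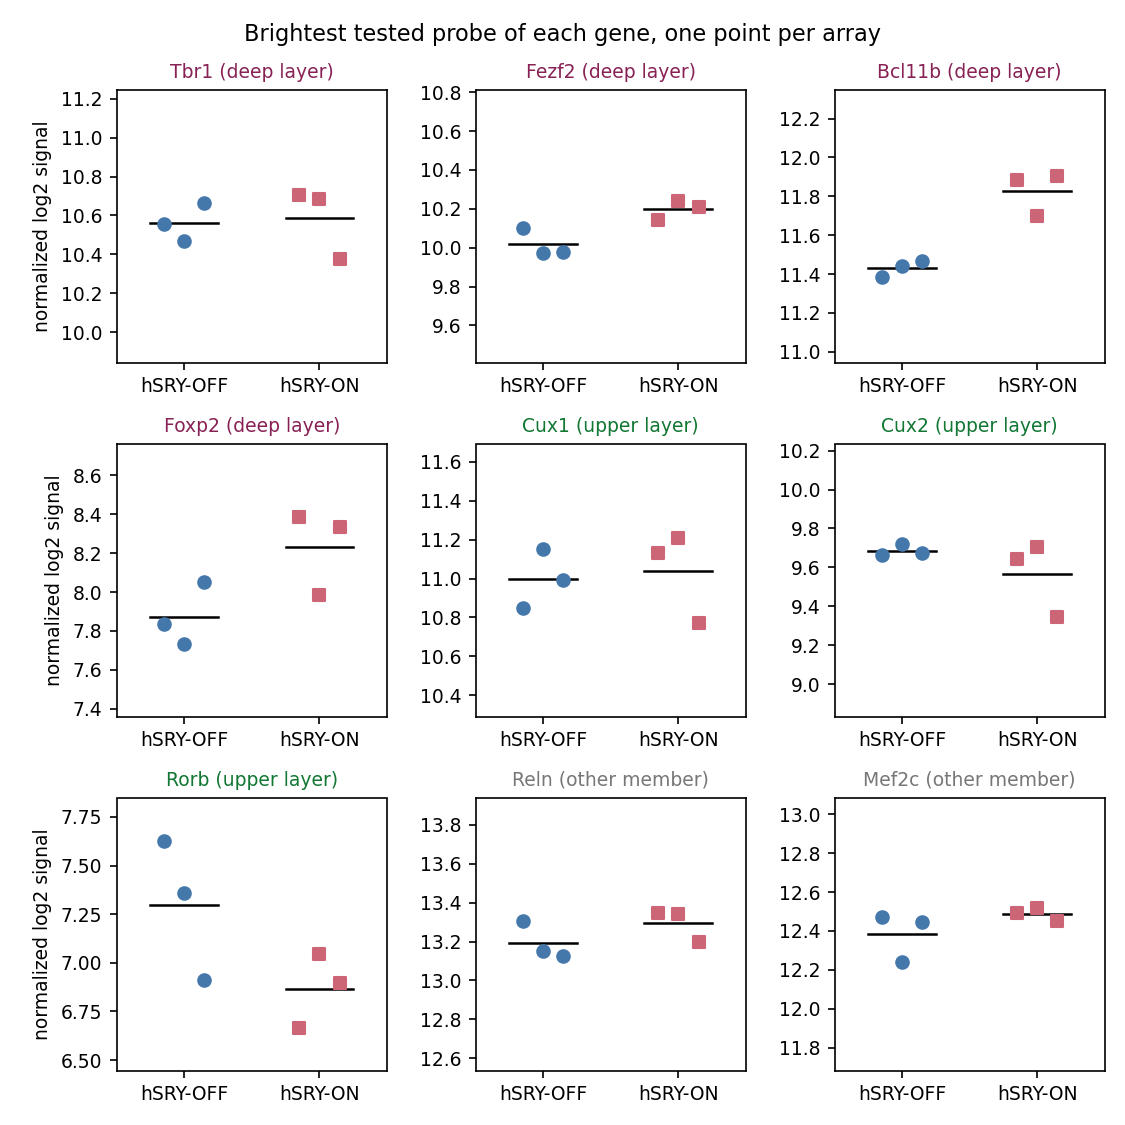
Normalized log2 signal of the brightest tested probe of each gene on each array (circles, hSRY-OFF; squares, hSRY-ON; horizontal lines, group means of 3 arrays; every panel spans the same log2 range). The genotypes are separate for Bcl11b and Fezf2 and overlap for the other 7 genes, and hSRY-ON 3 is the lowest array for Tbr1, Cux1 and Cux2.

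The striatum, where Bcl11b and Foxp2 are also active, was followed with 10 striatal neuron genes. Of these, 8 were in the table and 7 were tested (Adora2a did not pass the detection filter), and 6 of the 7 were above and 1 below their hSRY-OFF mean, with a median difference of 0.10 and none called. The summed linear signal of the tested striatal genes was 6385 to 6990 in hSRY-OFF and 6993 to 7820 in hSRY-ON, so it lay higher in hSRY-ON by the narrowest margin. Isl1, a factor of striatonigral neurons, differed by 0.43 (adjusted p 0.139), or 0.29 without hSRY-ON 1. Its adjusted p was 0.0229 without background correction and 0.313 without hSRY-OFF 2. Ppp1r1b, which encodes the striatal phosphoprotein DARPP-32, gave -0.33 (adjusted p 0.157, and -0.093 without background correction) at a dim probe and 0.16 (adjusted p 0.405) and 0.22 (adjusted p 0.544) at its other probes. The first of those was 0.10 without hSRY-OFF 1, and the second ranged from 0.056 without hSRY-OFF 1 to 0.44 without hSRY-OFF 3 and was 0.085 without background correction. Whether these striatal genes bear on the Bcl11b and Foxp2 values was not tested.

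For the upper layer genes the brightest probes had differences of 0.04, -0.12 and -0.43, with a median of -0.12, or -0.01 without hSRY-ON 3, and none passed the test. Rorb, a nuclear receptor of layer 4 neurons, read 7.63, 7.36 and 6.91 in hSRY-OFF and 6.66, 7.04 and 6.89 in hSRY-ON. The array hSRY-OFF 3 lay among the hSRY-ON arrays. The difference was -0.43 (SE 0.19, 95% interval -0.88 to 0.017, adjusted p 0.252), and was -0.21 without background correction. Without hSRY-OFF 1 it was -0.27. The second Rorb probe differed by -0.16 (adjusted p 0.647), or -0.015 without hSRY-OFF 2, -0.016 without hSRY-ON 1, -0.26 without either hSRY-OFF 3 or hSRY-ON 2, and -0.054 without background correction.

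Cux2, a homeobox factor of layers 2 to 4, read 9.66, 9.72 and 9.68 in hSRY-OFF and 9.64, 9.71 and 9.34 in hSRY-ON. The arrays hSRY-ON 1 and 2 lay close to the hSRY-OFF arrays, and hSRY-ON 3 lay well below all of them. The difference was -0.12 (SE 0.11, adjusted p 0.572), or -0.01 without hSRY-ON 3 and -0.19 without hSRY-ON 2. A second Cux2 probe, near background and detected on 2 hSRY-OFF arrays and 1 hSRY-ON array, differed by -0.26 (adjusted p 0.543), or -0.14 without hSRY-ON 3 and -0.071 without background correction. Another was detected on 1 array and not tested.

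Cux1, the paralogue of Cux2, had 4 tested probes that did not lie on 1 side, and another was not detected on any array. The brightest, ILMN_2652187, read 10.85, 11.15 and 11.00 in hSRY-OFF and 11.13, 11.21 and 10.77 in hSRY-ON. These groups overlapped throughout, with a difference of 0.04 (SE 0.14, adjusted p 0.907), or 0.17 (adjusted p 0.409) without hSRY-ON 3. The dim probe ILMN_1229977 read 6.24, 6.46 and 6.31 in hSRY-OFF and 6.12, 5.76 and 5.53 in hSRY-ON. It was the upper layer probe in which hSRY-ON arrays lay wholly below hSRY-OFF arrays, at -0.53 (SE 0.15, adjusted p 0.116), or -0.16 without background correction. The other 2 Cux1 probes, also dim, differed by 0.20 (adjusted p 0.551) and 0.0026 (adjusted p 0.996). The first of these ranged from 0.050 without hSRY-ON 2 to 0.34 without hSRY-OFF 3, and was 0.060 without background correction. So 1 of 8 tested upper layer probes was separate between the groups and lower in hSRY-ON, beside 14.2% of all probes. The thalamus, another site of Rorb expression, was followed with 6 genes. Of these, 5 were tested, 3 above and 2 below the hSRY-OFF mean with a median of 0.05 and none called, and their summed signal was 13666 to 14210 in hSRY-OFF and 13977 to 15975 in hSRY-ON. The thalamic transcription factor Tcf7l2 differed by 0.28 at its bright probe (adjusted p 0.169, with 0.0427 without background correction and up to 0.368 in other settings). Its dim probe was detected on the 3 hSRY-ON arrays and was not well above background on any hSRY-OFF array. It passed the filter through hSRY-ON alone and gives only a bound, at least 1.26-fold higher in hSRY-ON with this background correction. The adjusted p of 0.0595 belongs to the fitted difference and not to the bound, and nothing is read from it. Without background correction the fitted difference was 0.16, smaller than that bound, so the bound holds only with the correction. The bound sets the mean of the hSRY-ON arrays against the dimmest detected probe of each hSRY-OFF array. The homeobox factor Gbx2 differed by 0.53 (adjusted p 0.0950, with 0.0077 without background correction and 0.219 without hSRY-OFF 3). Their part in the Rorb value was not tested.

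**Figure D2:**
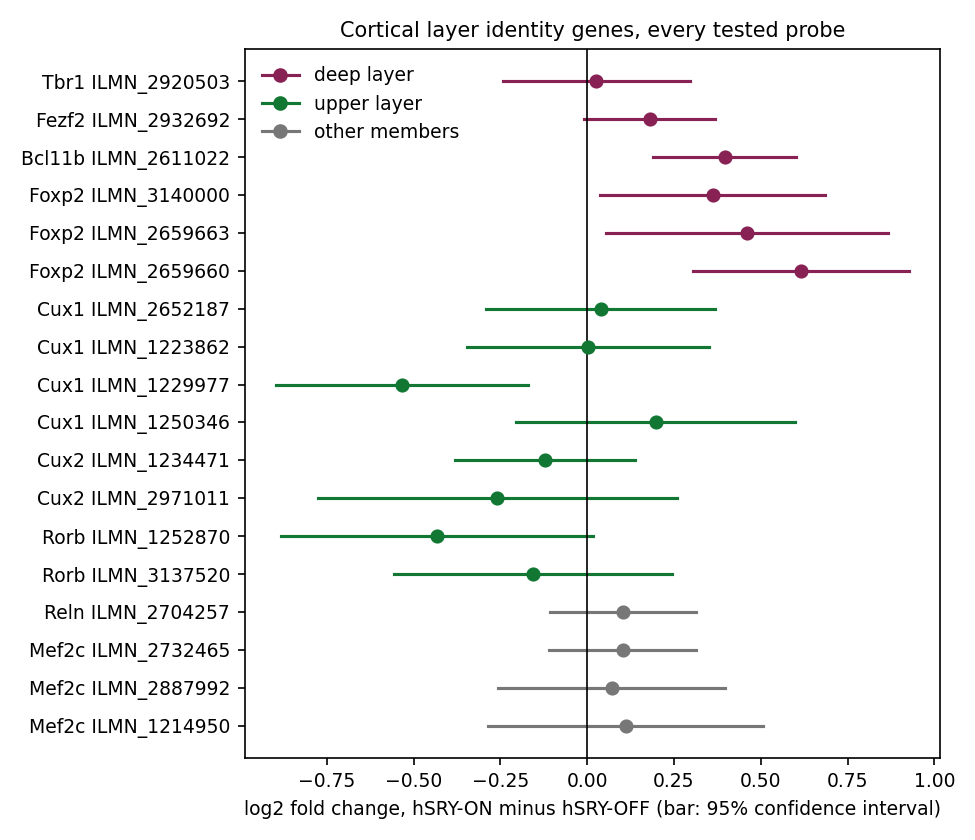
Log2 fold change (hSRY-ON minus hSRY-OFF, horizontal axis) of the 18 tested probes of the 9 genes, with 95% confidence intervals from limma and colour for the layer group. The 6 deep layer probes lie right of 0 (0.03 to 0.62), the 8 upper layer probes lie on both sides (-0.53 to 0.20), and no probe passed an adjusted p of 0.05.

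To set deep against upper layers, the mean log2 signal of the 4 deep layer genes and that of the 3 upper layer genes were taken on each array, relative to their hSRY-OFF means. The deep layer mean was -0.0013, -0.07 and 0.07 in hSRY-OFF and 0.31, 0.18 and 0.24 in hSRY-ON. The 3 hSRY-ON arrays lay above the 3 hSRY-OFF arrays, by 0.24 on average. The upper layer mean was 0.05, 0.08 and -0.13 in hSRY-OFF and -0.18, -0.0079 and -0.33 in hSRY-ON, a difference of -0.17 in which the groups overlapped. Their balance, deep minus upper, was -0.05, -0.15 and 0.20 in hSRY-OFF and 0.49, 0.19 and 0.56 in hSRY-ON. The balance was 0.41 higher in hSRY-ON on average (SD 0.18 in hSRY-OFF and 0.20 in hSRY-ON, n = 3), yet hSRY-ON 2 lay just below hSRY-OFF 3, so the genotypes overlapped. It was 0.34 without hSRY-ON 3. No p is attached to this balance, because the genes were picked with results of these arrays known.

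Wider lists of layer genes showed a smaller balance between deep and upper layers. Among 15 further deep layer and subplate genes, 13 were in the table and 11 were tested. Of these 7 were above and 4 below their hSRY-OFF mean, none was called and the median difference was 0.05. Sox5, which times the production of deep layer neurons, differed by 0.47 (adjusted p 0.100), 0.19 (adjusted p 0.373) and 0.16 (adjusted p 0.681) at its 3 probes. Without background correction the first was 0.29 (adjusted p 0.0283), and its adjusted p was up to 0.247 in other settings. Etv1, a layer 5 factor, differed by 0.37 (adjusted p 0.133) and 0.14 (adjusted p 0.649), the first 0.18 without background correction. With single arrays left out, the last 2 Sox5 values ranged from 0.11 (without hSRY-OFF 2) to 0.26 and from 0.037 (without hSRY-OFF 3) to 0.33 (without hSRY-OFF 2), and the last Etv1 value from 0.049 (without hSRY-OFF 3) to 0.29 (without hSRY-OFF 1). Of 15 further upper layer genes, 10 were tested, 4 above and 6 below with a median of -0.16 and none called. Their mean on the hSRY-ON arrays was nevertheless near 0, at -0.01, -0.02 and -0.02 relative to hSRY-OFF, since some genes lay well above it. Lhx2, a cortical selector gene that is also expressed in progenitors, differed by 0.43 (adjusted p 0.0968), and Pou3f3, a POU factor of upper layer neurons, by -0.32 (adjusted p 0.155). Without background correction these were 0.18 and -0.15. The balance of these wider lists was 0.02, -0.03 and 0.02 in hSRY-OFF and 0.12, 0.10 and 0.03 in hSRY-ON. Here the hSRY-ON arrays lay above the hSRY-OFF arrays, unlike for the 7 deep and upper layer genes, but only narrowly. The nearest arrays were hSRY-ON 3 at 0.026 and hSRY-OFF 1 at 0.018. The array hSRY-ON 3, which had the highest balance for those 7, had the lowest of the hSRY-ON arrays.

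**Figure D3:**
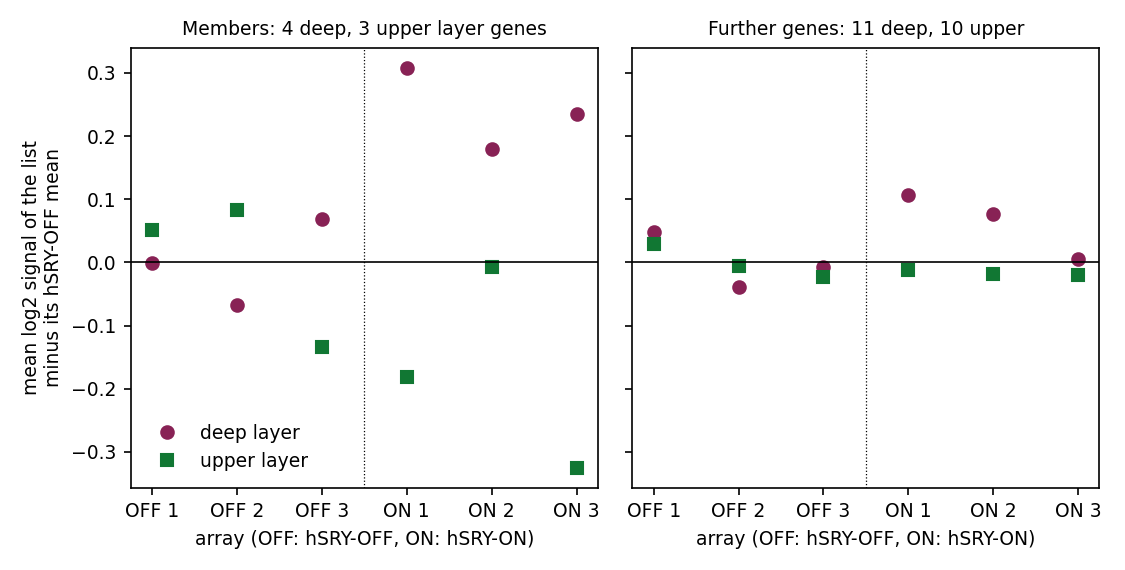
Mean normalized log2 signal of deep layer genes (circles) and upper layer genes (squares) on each array, minus the mean of the hSRY-OFF arrays, for the 4 deep and 3 upper layer genes (left) and for the wider lists of 11 and 10 genes (right). On the left the deep layer points of hSRY-ON lie at 0.18 to 0.31 and the upper layer points at -0.33 to -0.0079, while all points on the right lie within -0.04 to 0.11.

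General markers of cortical excitatory neurons were divided. Of 8 genes, 6 were tested, 3 above and 3 below, with a median of 0.0043 and none called. Slc17a7, the vesicular glutamate transporter VGLUT1 that increases as cortical neurons mature, differed by -0.63 (adjusted p 0.0595). Its adjusted p was 0.0477 with median scaling, 0.00155 without background correction and up to 0.167 in other settings. Neurod2, a differentiation factor, differed by 0.35 (adjusted p 0.153), or by 0.20 without background correction. The summed signal of the 6 tested genes was 12439 to 13811 in hSRY-OFF and 10631 to 11367 in hSRY-ON. Glial, vascular and blood markers were all 16 above the detection filter, and their summed signal was 83861 to 90227 in hSRY-OFF and 71414 to 81641 in hSRY-ON. The brightest probes, of the haemoglobin gene Hba-a1 (hSRY-OFF mean 15.03) and of Slc1a3 (14.32), weigh most in this sum, so it does not read glia as a whole. In this list 10 genes were below and 6 above their hSRY-OFF mean (median -0.23). Of its 24 probes 4 were called, all lower, beside 1.32% of all probes, and 3 genes fell: the myelin gene Mobp at 2 of its 3 probes (-1.36, adjusted p 0.0348, and -1.05, adjusted p 0.0225), the astrocyte gene Gfap (-0.83, adjusted p 0.0308) and the astrocyte water channel Aqp4 (-0.81, adjusted p 0.0275). These 4 probes were not called when any array but hSRY-ON 3 was left out, although all stayed lower, and with no filter on dim probes the first Mobp probe was not called (adjusted p 0.0541). Without background correction Gfap was at -0.51 and the second Mobp probe at -0.66, with all 4 still called. Slc1a3, another astrocyte gene of the list, differed by only 0.03 (adjusted p 0.897). The vascular genes were divided, with Cldn5 at -0.42 (adjusted p 0.126), Flt1 at 0.49 (adjusted p 0.131) and Pecam1 at 0.07 (adjusted p 0.765). The part of this list in the layer gene values was not tested.

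Mef2c, an activity-dependent factor needed for the maturation of cortical neurons of several layers, had 3 tested probes. They differed by 0.10 (adjusted p 0.558), 0.07 (adjusted p 0.815) and 0.11 (adjusted p 0.751), and all overlapped between genotypes. The last of these was 0.28 (adjusted p 0.279) without hSRY-ON 3. The brightest probe read 12.47, 12.24 and 12.44 in hSRY-OFF and 12.49, 12.52 and 12.45 in hSRY-ON. The array hSRY-OFF 2 was the lowest of the 6, and without it the difference was 0.03.

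Reln, which encodes reelin, read 13.31, 13.15 and 13.12 in hSRY-OFF and 13.35, 13.34 and 13.20 in hSRY-ON at its 1 probe. The groups overlapped, and the difference was 0.10 (SE 0.089, 95% interval -0.11 to 0.31, adjusted p 0.557), or 0.15 without hSRY-ON 3, 0.16 without hSRY-OFF 1 and 0.065 without hSRY-OFF 3. Of 7 genes of Cajal-Retzius cells, 5 were tested, 2 above and 3 below (median -0.02) and none called, while Trp73, which defines these cells, and Nhlh2 did not pass the detection filter. Ebf2, a transcription factor of these cells, differed by 0.37 (adjusted p 0.0809) and 0.39 (adjusted p 0.164), or 0.19 and 0.17 without background correction, and Calb2, which encodes calretinin, by 0.20 (adjusted p 0.289) and 0.07 (adjusted p 0.673), the second 0.037 without hSRY-ON 1, 0.041 without hSRY-OFF 1 and 0.10 without hSRY-ON 3. Of 8 genes of cerebellar granule cells, the other large source of reelin, 4 were tested, 3 above and 1 below (median 0.05) and none called, and Gabra6, a marker of mature granule cells, did not pass the detection filter. Cbln1, which encodes a synaptic organizer of granule cells, differed by -0.16 (adjusted p 0.380, and -0.079 without hSRY-OFF 2) and Zic1, a zinc finger factor, by 0.16 (adjusted p 0.662). Their summed signal was 6962 to 8580 in hSRY-OFF and 6989 to 7452 in hSRY-ON, with full overlap. Purkinje cells, another site of Foxp2 expression, were followed with 7 genes, of which 5 were tested, 3 above and 2 below (median 0.0041). Their summed signal was 10097 to 11688 in hSRY-OFF and 9632 to 10525 in hSRY-ON, and its part in the Foxp2 values was not tested. Pcp2, a marker of maturing Purkinje cells, fell by 0.97 (adjusted p 0.0243), a call that was kept without hSRY-ON 3 (adjusted p 0.0219) and not without any other array (adjusted p up to 0.108).

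Within the reelin pathway, the receptor gene Vldlr was detected in both groups at 4 of its 5 probes. At these 4 it read higher on every hSRY-ON array than on any hSRY-OFF array, and 1 of the 4 passed the test. Of all tested probes, 13.5% lay wholly higher in hSRY-ON. Of the 12 pathway genes, 11 were tested with 22 probes, while Fyn, a kinase that phosphorylates Dab1, did not pass the detection filter. Of the 22 probes, 2 were called, both higher in hSRY-ON and both of Vldlr, but 1 of the 2 entered the test only through its hSRY-ON arrays. The share of all probes called higher was 0.844%, and nothing is read from the count beside it. Vldlr, the very low density lipoprotein receptor, is the reelin receptor that stops migrating neurons below the cortical surface. Its probe ILMN_2458671 read 5.28, 5.67 and 5.55 in hSRY-OFF and 6.37, 6.45 and 6.20 in hSRY-ON, and rose by 0.84 (SE 0.12, 95% interval 0.55 to 1.14, adjusted p 0.0321). It was near background in hSRY-OFF, where 2 of 3 arrays detected it, and without background correction the rise was 0.25 (adjusted p 0.0282). The probe ILMN_1230923 read 6.20, 5.88 and 5.96 in hSRY-ON and was not well above background on any hSRY-OFF array. It therefore passed the filter through the hSRY-ON arrays alone, and it gives only a bound, at least 1.47-fold higher in hSRY-ON with this background correction. The adjusted p of 0.0330 belongs to the fitted difference and not to the bound, and nothing is read from it. Without background correction the fitted difference was 0.21, smaller than that bound, so the bound holds only with the correction.

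The 3 bright Vldlr probes had no overlap between genotypes either, where 13.5% of all probes lay wholly higher in hSRY-ON. ILMN_2796472 read 10.77, 10.69 and 10.83 in hSRY-OFF and 11.23, 11.06 and 11.15 in hSRY-ON, a difference of 0.38 (SE 0.085, adjusted p 0.0679). The remaining probes differed by 0.38 (adjusted p 0.0861) and 0.34 (adjusted p 0.0744). No Vldlr probe was called when hSRY-OFF 1, hSRY-OFF 2, hSRY-OFF 3, hSRY-ON 1 or hSRY-ON 2 was left out, and 1 was called without hSRY-ON 3 (ILMN_2458671, adjusted p 0.0324). In the fits without an hSRY-ON array, ILMN_1230923 did not pass the filter and was not tested. Without background correction its adjusted p was 0.0568, while the other 4 probes were called.

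The other genes of the pathway did not pass. The median difference over the 11 genes was 0.02, with 7 above and 4 below their hSRY-OFF mean. The following genes were picked by their place in the pathway after their values were seen. Lrp8, the second reelin receptor, differed by -0.27 (adjusted p 0.448). Its probe was near background, detected on 3 hSRY-OFF and 2 hSRY-ON arrays, and read 6.32, 5.80 and 6.10 in hSRY-OFF and 5.48, 5.95 and 5.99 in hSRY-ON. Dab1, the adaptor that both receptors share, differed by 0.28 (adjusted p 0.219), 0.29 (adjusted p 0.245) and 0.19 (adjusted p 0.575) at its probes. The last of these read 7.17, 7.05 and 7.31 in hSRY-OFF and 7.51, 6.97 and 7.63 in hSRY-ON, so it rests on single arrays. Cdk5, a kinase that acts in neuronal migration beside the pathway, differed by -0.28 (adjusted p 0.101) with no overlap between the groups. Pafah1b1, the lissencephaly gene Lis1, gave opposite values at its probes, -0.29 (adjusted p 0.147) and 0.25 (adjusted p 0.190), each without overlap, so it has no direction here. Over the pathway, 9 of the 22 tested probes did not overlap between the groups, beside 27.7% of all probes. The 9 include the Vldlr probe that passed the filter through hSRY-ON alone. The difference between Vldlr and Lrp8 was not tested.

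**Figure D4:**
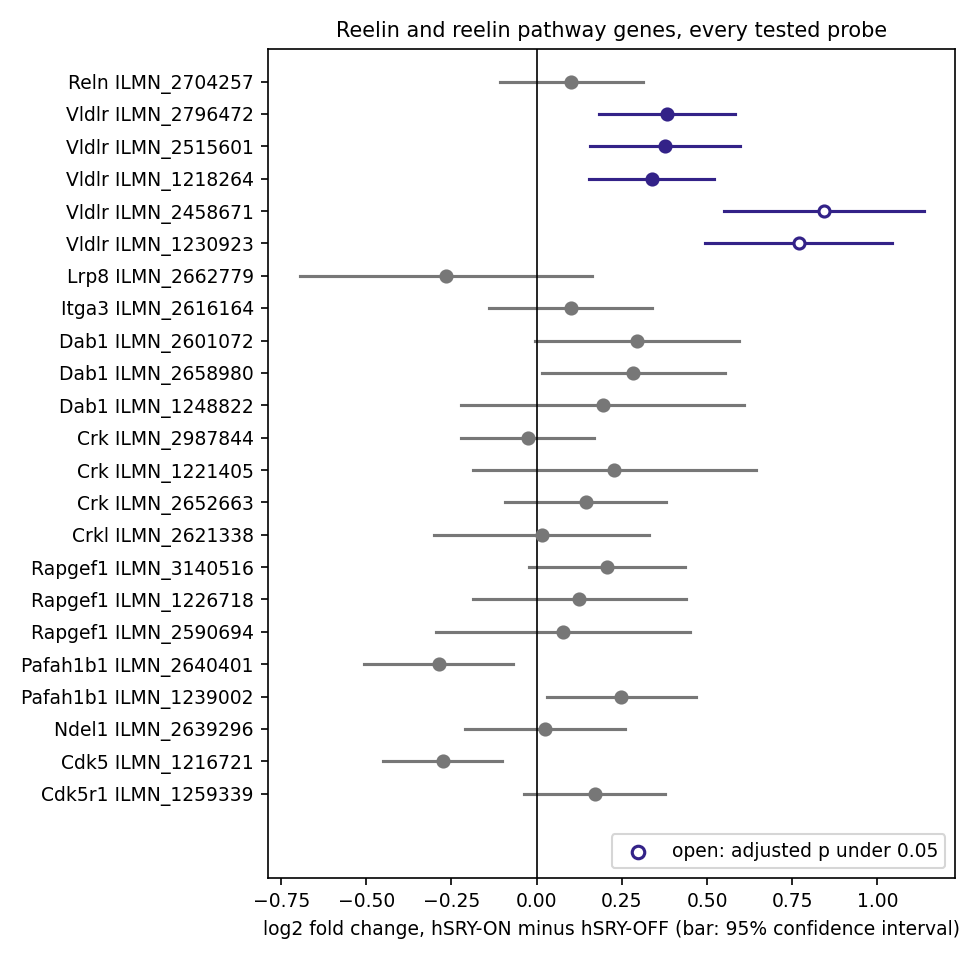
Log2 fold change (hSRY-ON minus hSRY-OFF, horizontal axis) with 95% confidence intervals for the Reln probe and the 22 tested probes of reelin pathway genes; Vldlr in dark blue, open circles for an adjusted p under 0.05. The 5 Vldlr probes lie between 0.34 and 0.84, and the 2 open circles are the dim probes, of which ILMN_1230923 was not well above background in hSRY-OFF, so that its plotted value (0.77) is the fitted one and not a measured fold.

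The pattern of the Foxp2 probe with the lowest p was shared by many probes. Over the 6 arrays its Pearson correlation was highest with Depdc6 (0.996), Blcap (0.993), Aasdh (0.993), Zfp512 (0.992) and Nxph1 (0.990), none of which was called (adjusted p 0.0832 to 0.274). Correlations above 0.9 with this probe were held by 336 probes. Among the layer genes themselves, the brightest probes of Bcl11b and Foxp2 had a correlation of 0.90 over the 6 arrays, and those of Foxp2 and Rorb of -0.86. Tbr1 had a correlation of -0.02 with Bcl11b and 0.65 with Cux2, so the arrays did not order the deep layer genes alike. These correlations describe 6 arrays that include the genotype difference and carry no test.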

How the data were processed

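The authors deposited a table of mean bead signal intensity per probe and array, on a linear scale without quantile normalization, with a detection p-value for each. TCC, named in the methods without settings, was not used. In R 4.3.3 with limma 3.58.1, detection p-values gave the negative-control mean and SD, and intensities were normexp corrected (offset 16), quantile normalized and put on the log2 scale, which makes dim probes noisier. Testing needed a detection p under 0.05 on at least 3 arrays and used lmFit and eBayes (group only, two-sided, Benjamini-Hochberg over 14215 probes, call at 0.05). A gene is represented by its brightest tested probe, and a list by its genes' counts and median. From each wider list, every gene with a called probe is named, or otherwise the 2 with the lowest p, except where stated. Only 3 arrays per group limit the precision. The genes and lists were chosen with earlier results of these data known. The same fit was checked on simulated data. Plots used matplotlib 3.10.9 (Python 3.11.15). Alternatives covered background correction, normalization, filter, prior, array weights, a replicate block and each array left out.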

Additional observations from a re-analysis of the deposited data

How the results depend on the processing

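The count of called probes among the 9 genes was 0, and became 2 (Bcl11b and the Foxp2 probe ILMN_2659660, both higher) without background correction, with normexp at an offset of 50, with a detection p under 0.01 on all arrays, and with a trend and robust prior, where 9.26%, 6.05%, 6.07% and 10.2% of all probes were called. It became 1 (Foxp2) with array weights (3.38% called), and was 0 with median scaling, cyclic loess, no filter (0.479%) and without each array (0 to 0). The count for the reelin pathway, 2, became 5 without background correction or with an offset of 50, 6 with the trend and robust prior, and 0 to 1 without an array. The deep layer median of 0.27 was 0.20 without background correction and 0.23 to 0.31 without an array, the upper layer median -0.19 to -0.01 and the balance 0.34 to 0.53, with 0.29 for the balance without background correction. Without that correction the difference was over 1.5 times smaller for 26 of the 51 probes named by rule and over 1.5 times larger for 0. Of the 18 probes, 13 kept their direction in every setting run. With median scaling, Cux1 ILMN_1223862 turned to -0.00021. Without 1 array, the directions of the other 5 of the 18 probes, and of Zic1 outside the 9 genes, turned in at least 1 of the 6 fits. Cux1 ILMN_1223862 ranged from -0.12 to 0.093 (below 0 without hSRY-OFF 2 or hSRY-ON 1) and Cux1 ILMN_2652187 from -0.048 to 0.17 (below 0 without hSRY-OFF 1, hSRY-ON 1 or hSRY-ON 2). Tbr1 ILMN_2920503 ranged from -0.032 to 0.13 (below 0 without hSRY-OFF 2, hSRY-ON 1 or hSRY-ON 2). Mef2c ILMN_1214950 ranged from -0.0063 to 0.28 (below 0 without hSRY-OFF 2), Mef2c ILMN_2887992 from -0.039 to 0.18 (below 0 without hSRY-OFF 3 or hSRY-ON 2) and Zic1 ILMN_2491186 from -0.042 to 0.29 (below 0 without hSRY-OFF 3). The cause of these shifts was not tested.

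Replicate numbers are shared by the groups, but deviations of same-numbered arrays correlated at only 0.040, 0.029 and 0.025, although each hSRY-ON array correlated best with its own number. With the number as a replicate block, 0 probes were called over the whole table (5 of the 18 probes at an unadjusted p under 0.05), with an adjusted p of 0.131 for Bcl11b and 0.133 for the Foxp2 probe, and 0 called in the reelin pathway.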
